A study of Mus musculus with 12 samples.

Results

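The 7 genes described here are Id1, Id2, Id3 and Id4, the inhibitors of DNA binding, Smad6 and Smad7, the inhibitory SMADs, and Tgfb2, a TGF-beta ligand. They were chosen by name, as genes that report or carry BMP and TGF-beta signalling, from a table of 25208 mouse genes. The choice was made with earlier results of these data known. All 7 had a row, and 6 of them were among the 16508 genes with enough reads to be tested. Id4 was not.

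RNA was sequenced, after removal of ribosomal RNA, from mpkCCDc11 cells, a single immortalised mouse line from the cortical collecting duct of the kidney that serves as a model of the principal cell. The study asked how beta-catenin, the product of Ctnnb1, bears on the response of these cells to vasopressin. A pair of siRNAs (control siRNA or Ctnnb1 siRNA) was crossed with a pair of treatments (vehicle or 1 nM dDAVP, a synthetic vasopressin that acts on V2 receptors, on the basolateral side for 24 h), which gave 4 groups of 3 libraries. All cells were labelled wild type, were transfected with an siRNA, grew for 4 days on permeable supports in medium with serum, insulin, epidermal growth factor and dexamethasone, and then spent 24 h without serum and hormones. The labels name no added BMP or TGF-beta ligand, and they write a concentration of 50 nM beside a TRIM28 siRNA that no group here received. The labels number the replicates but do not say that they came from separate cultures, so p-values measure the spread between these libraries, which may be technical.

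BMP ligands bind paired serine/threonine kinase receptors that phosphorylate SMAD1 and SMAD5, and TGF-beta ligands bind receptors that phosphorylate SMAD2 and SMAD3. Both kinds of SMAD join SMAD4 and enter the nucleus, where BMP signalling raises Id1, Id2, Id3, Smad6 and Smad7. Id proteins lack a DNA-binding domain and hold E proteins such as TCF3, TCF4 and TCF12 away from DNA, while SMAD6 and SMAD7 block the receptors in a negative feedback loop.

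The libraries held 32997720 to 48935473 counted reads. Levels are given as CPM (read counts scaled to a common library size) after TMM scaling, and as deposited TPM, which also corrects for transcript length, where different genes are compared. Ctnnb1 (GRCm38.p6 chr9:120933400-120960507) was at 757 ± 11.5 and 791 ± 18.2 CPM with control siRNA (vehicle and dDAVP; SD, n = 3) and at 316 ± 14.9 and 334 ± 8.08 CPM with Ctnnb1 siRNA, so the knockdown was 2.39-fold with vehicle and 2.37-fold with dDAVP and left part of the transcript. All 5 epithelial markers were tested and summed to 3920 to 4450 TPM over the 12 libraries. Of 14 principal cell markers 11 were tested. The 14 summed to 233 to 316 TPM, and Aqp2, which defines these cells, averaged 0.02 and 0.0767 TPM with vehicle and 8.63 and 4.94 TPM with dDAVP (control and Ctnnb1 siRNA). Under either siRNA, mean Avpr2 and Tmem45b TPM were higher with dDAVP, and mean Scnn1a and Hsd11b2 TPM were lower. Scnn1b reached at most 0.37 TPM and Aqp3 at most 1.7 TPM. Aqp4, Elf5 and Kcnj1 had too few reads to be tested. Intercalated cell markers (4 of 6 in the table) summed to 61.6 to 80.6 TPM, mostly Atp6v1b1, with Atp6v0a4 at 5.81 and 7.03 TPM with vehicle and 11.5 and 12.2 TPM with dDAVP (control and Ctnnb1 siRNA) and Slc4a1 too low to be tested. Proximal tubule markers (3 of 4) summed to 8.32 to 13.3 TPM, nearly all Lrp2. Their part in the results below was not tested. Fibroblast markers in the table (3 of 7) summed to 0.54 to 0.97 TPM, leukocyte markers (2 of 5) to 3.88 to 8.13 TPM with Ptprc at no more than 0.1 TPM, and endothelial markers (2 of 4) to 0.31 TPM or less. Replicate 3 of the Ctnnb1-siRNA dDAVP group stood apart from its mates: in a chi-square comparison of gene counts the statistic divided by its degrees of freedom was 42.8 and 69.4 in its pairs and 5.34 to 25.4 in the other replicate pairs. In bulk RNA, fewer cells with a transcript and less of it per cell cannot be told apart.

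Short stretches before the start used in the RefSeq promoter windows of Id3, Tgfb2 and Id2 are shown, since these 3 genes moved in different directions. Each runs 5′ to 3′ on the gene's strand for 30 bases (GRCm38.p6). Capitals mark matches, on either strand, to CAGAC (the SMAD3 and SMAD4 box), TGACG (the core of a cAMP response element) or GGCGCC (a GC-rich element bound by SMAD1 and SMAD5).
Id3 at chr4:136143641-136143670 (+): gctgtcctcggCGTCAGACcagcctaagga
Id3 at chr4:136143741-136143770 (+): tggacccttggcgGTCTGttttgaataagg
Tgfb2 at chr1:186706185-186706214 (-): cacaCAGACccttggtgatcaCAGACagtg
Tgfb2 at chr1:186706045-186706074 (-): tgtaatcctagcgCGTCActttgttgaagg
Id2 at chr12:25096306-25096335 (-): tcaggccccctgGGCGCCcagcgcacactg

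Windows of 300 bases (250 before and 50 after the start) were used for 5 of the 7 members, all but Id1 and Smad7. In Id3 the first CAGAC match, at -167 from the start, overlaps a TGACG match at -170 on the other strand, and a further CAGAC match lies at -68 on the other strand. The GENCODE M21 annotation starts Id3 further upstream, so both Id3 stretches fall in its 5′ UTR there. The window start of Tgfb2 lies inside the RefSeq span of the gene, which begins further upstream. Tgfb2 had CAGAC at -221 and -204 and TGACG at -72 on the other strand, the last in a stretch that overlaps an exon of the gene Gm29491. The window of Id2 held GGCGCC at -231 and that of Id4 held it at -148, with TGACG at -229 and CTTTGA, the TCF and LEF core, at 36 after the start. The Smad6 window held none of these, only the E-box CANNTG at 8, which also occurred at -196 in Id2 and -51 in Tgfb2. The full element TGACGTCA, which contains TGACG, was in none of the 5 windows. Of all 32817 RefSeq windows, 49.6% held CAGAC, 20.8% TGACG, 11.9% GGCGCC, 16% CTTTGA, 1.79% TGACGTCA and 72.3% the E-box, so a match describes the letters and not a site in use.

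The members did not move as a block. Under dDAVP Id3 rose with either siRNA, by 1.73-fold and 2.07-fold, while Tgfb2 fell, by 1.71-fold after Ctnnb1 siRNA. Under Ctnnb1 siRNA Id1 fell 1.56-fold with vehicle and Tgfb2 fell 1.72-fold with dDAVP. Id2, the most abundant member, was 1.18-fold higher with Ctnnb1 siRNA when both treatments were averaged. Smad6 and Smad7 passed edgeR's test in no comparison. Calls are those of edgeR's quasi-likelihood test, and required a Benjamini-Hochberg adjusted p below 0.05 over all 16508 genes.

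By comparison, dDAVP with control siRNA called 1 of the 6 tested members (Id3, higher), beside 2.83% of all tested genes, 1.91% as higher. With Ctnnb1 siRNA, dDAVP called 2 of 6 (Id3 higher, Tgfb2 lower), beside 2.78% of all, 2.08% as higher and 0.697% as lower. Ctnnb1 siRNA called 1 of 6 with vehicle (Id1, lower), beside 0.43% of all and 0.224% as lower. With dDAVP it called 1 of 6 (Tgfb2, lower), beside 0.267% of all and 0.145% as lower. The average of the dDAVP effects over both siRNAs called 2 of 6 (Id3 higher, Tgfb2 lower), beside 6.86% of all, 4.33% as higher and 2.54% as lower. The average of the siRNA effects over both treatments called 4 of 6 (Id1, Id3 and Tgfb2 lower, Id2 higher), beside 1.85% of all, 0.939% as higher and 0.909% as lower. These comparisons share groups: dDAVP with control siRNA and Ctnnb1 siRNA with vehicle both use the control-siRNA vehicle libraries, for example, so their calls are not independent of each other. Because the members were chosen with earlier results of these data known, the counts beside the shares are a description only. The interaction, which asks whether the dDAVP effect differed between the siRNAs, called 0 of 6 members and 0 of all tested genes in edgeR. At an unadjusted p under 0.05 it gave 0 members and 829 genes. DESeq2, voom and limma on log2 TPM plus 1 or plus 0.1 also called 0 members, and 1, 0, 0 and 2 genes in that order.

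**Figure D1:**
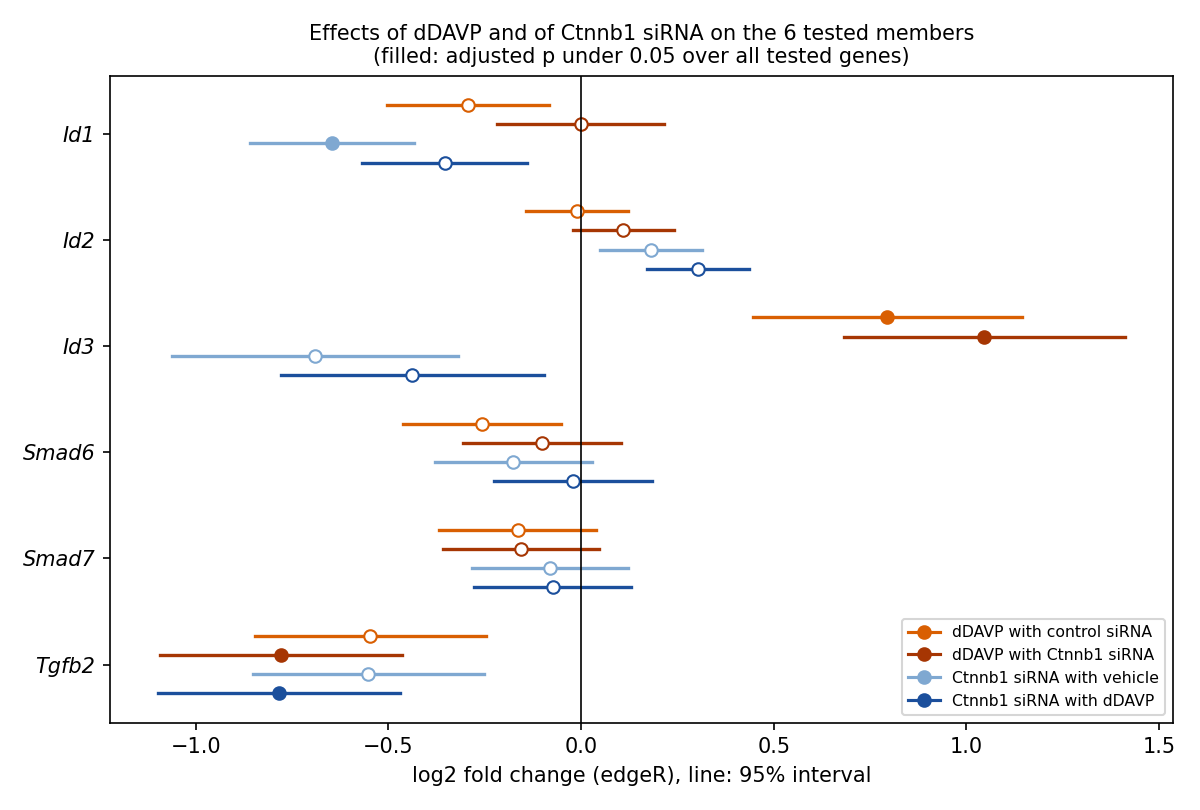
Log2 fold changes (x axis) of the 6 tested members in the 4 pairwise comparisons, with 95% intervals as lines and filled points for an adjusted p under 0.05. The Id3 intervals lie right of 0 under dDAVP and left of 0 under Ctnnb1 siRNA, all 4 Tgfb2 intervals lie left of 0, and those of Smad7 all include 0.

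Tgfb2 (chr1:186622787-186709697), the ligand among the members, was lowest where both interventions met. It was at 6.59, 8.29 and 7.05 CPM in the control-siRNA vehicle libraries (replicates 1 to 3) and at 4.94, 5.21 and 4.82 CPM with dDAVP. The Ctnnb1-siRNA libraries were at 4.73, 5.59 and 4.59 CPM with vehicle and at 3.35, 3.02 and 2.34 CPM with dDAVP. Every control-siRNA vehicle library was above all others, every Ctnnb1-siRNA dDAVP library was below all others, and the remaining groups overlapped each other. The group means ran from 7.31 ± 0.88 CPM down to 2.9 ± 0.51 CPM (SD, n = 3), a 2.52-fold span between the corners of the design.

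After Ctnnb1 siRNA the log2 change of Tgfb2 with dDAVP was -0.78 (SE 0.15, 95% interval -1.09 to -0.46, edgeR adjusted p = 0.00759). With control siRNA it was -0.55 (SE 0.14, -0.85 to -0.25), and its edgeR adjusted p of 0.05025 just missed the threshold. That value was called in 9 of 22 alternative analyses, among them DESeq2 (adjusted p = 0.02127). The siRNA changed Tgfb2 by -0.55 with vehicle (SE 0.14, -0.85 to -0.25, edgeR adjusted p = 0.1399) and by -0.78 with dDAVP (SE 0.15, -1.10 to -0.47, edgeR adjusted p = 0.03808). In all 4 comparisons the treated or knocked-down libraries lay below their controls with no overlap. Averaged, dDAVP gave -0.66 (SE 0.10, edgeR adjusted p = 0.0006192) and the siRNA -0.67 (SE 0.10, edgeR adjusted p = 0.002385), and both averages kept their calls in all 21 alternatives. The interaction was -0.23 (95% interval -0.66 to 0.20, edgeR adjusted p = 0.9288), so the dDAVP step was not shown to differ between the siRNAs.

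The pairwise calls of Tgfb2 were lost under several alternatives. Under dDAVP with Ctnnb1 siRNA the call was lost without replicate 2 of the Ctnnb1-siRNA vehicle group (adjusted p = 0.05956) and on log2 TPM plus 1 and plus 0.1 (adjusted p = 0.06962 and 0.06026). Under Ctnnb1 siRNA with dDAVP it was lost on leaving out any one of 9 libraries: replicate 3 of the control-siRNA vehicle group, any of the control-siRNA dDAVP or Ctnnb1-siRNA vehicle groups, or replicates 1 or 2 of the Ctnnb1-siRNA dDAVP group (adjusted p 0.05002 to 0.1397). It was also lost in a fit of only the 2 groups (adjusted p = 0.2217) and on both log2 TPM scales (adjusted p = 0.1754 and 0.1727). The uncalled siRNA change with vehicle passed in 3 of 22 alternatives: voom (adjusted p = 0.03379), only the 2 groups (adjusted p = 0.04406), and without replicate 3 of the Ctnnb1-siRNA dDAVP group (adjusted p = 0.0422). Without the replicate that stood apart, replicate 3 of the Ctnnb1-siRNA dDAVP group, the log2 changes were -0.64 for dDAVP (adjusted p = 0.02364) and -0.65 for the siRNA (adjusted p = 0.04532). The gene overlaps Gm35655, which had 7 reads in all libraries against 2589 of Tgfb2, and the snoRNA gene Gm26169 and the gene Gm29491, neither analysed here. Whether counting used the strand is not given in the sources used here.

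**Figure D2:**
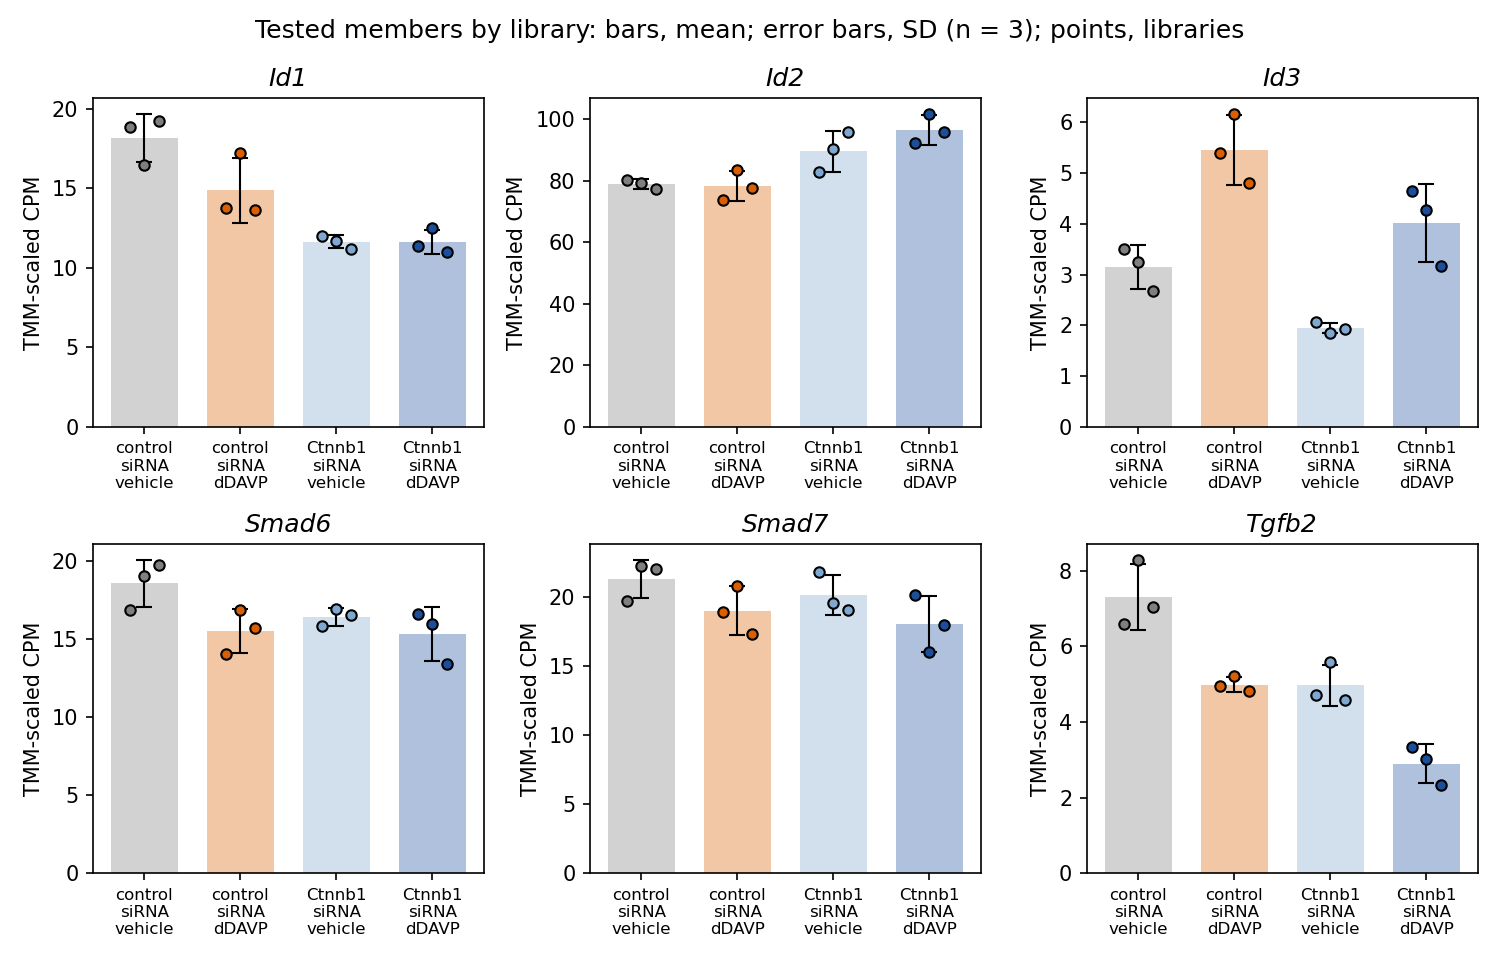
TMM-scaled CPM of the 6 tested members in each library (points), with group means as bars and SD as error bars (n = 3), each panel on its own scale from 0. Tgfb2 steps down from 7.31 to 2.9 CPM, Id3 is higher in both dDAVP groups, and Id1 is lower in both Ctnnb1-siRNA groups.

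Id3 (chr4:136143822-136145392) had the largest dDAVP change of the tested members. With control siRNA it was at 3.51, 3.25 and 2.67 CPM in vehicle and at 5.4, 6.17 and 4.80 CPM in dDAVP. With Ctnnb1 siRNA it was at 2.06, 1.85 and 1.94 CPM in vehicle and at 4.64, 4.27 and 3.16 CPM in dDAVP. Within each siRNA every dDAVP library was above every vehicle library, and within each treatment every Ctnnb1-siRNA library was below every control-siRNA library. The corner groups, control-siRNA vehicle and Ctnnb1-siRNA dDAVP, overlapped at 3.14 ± 0.43 and 4.02 ± 0.77 CPM (SD, n = 3).

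The log2 change of Id3 with dDAVP was 0.79 with control siRNA (SE 0.16, 95% interval 0.45 to 1.14, edgeR adjusted p = 0.01351) and 1.05 with Ctnnb1 siRNA (SE 0.17, 0.68 to 1.41, edgeR adjusted p = 0.002426). Averaged it was 0.92 (SE 0.12, 1.89-fold, edgeR adjusted p = 0.0001188). The interaction, 0.25, had a wide interval from -0.25 to 0.75 (edgeR adjusted p = 0.932). The siRNA changed Id3 by -0.69 with vehicle (SE 0.17, -1.06 to -0.32, edgeR adjusted p = 0.1342) and by -0.44 with dDAVP (SE 0.16, -0.78 to -0.10, edgeR adjusted p = 0.3002), neither of which passed. Their average, -0.56 (SE 0.12, 1.48-fold lower), did (edgeR adjusted p = 0.02124).

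The dDAVP response of Id3 after Ctnnb1 siRNA was called in all 22 alternatives, and its average over the siRNAs in all 21. With control siRNA the call was lost without replicates 2 or 3 of the vehicle group or replicate 2 of the dDAVP group (adjusted p 0.05138 to 0.09327). The averaged siRNA call was lost without replicates 1 or 2 of the control-siRNA vehicle group or replicates 2 or 3 of the Ctnnb1-siRNA vehicle group (adjusted p 0.05992 to 0.06949). Without the replicate that stood apart, the dDAVP change after Ctnnb1 siRNA was 1.19 (adjusted p = 0.0005003), and the siRNA change with vehicle passed as well (-0.69, adjusted p = 0.04235), as it did on both log2 TPM scales (adjusted p = 0.04091 and 0.03284). On those TPM scales the median change over genes in that comparison was itself -0.0682 and -0.0799, against -0.0029 in edgeR. Id3 had 82 to 244 reads a library, and at the mean reads of each group the counting error of a library was 6.62% to 11%.

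Id1 (chr2:152736251-152737410), the member most used as a readout of BMP signalling, was high in the control-siRNA vehicle group at 18.8, 16.4 and 19.2 CPM. It was at 13.8, 17.2 and 13.6 CPM in control-siRNA dDAVP, at 12.02, 11.7 and 11.2 CPM in Ctnnb1-siRNA vehicle and at 11.4, 12.5 and 11.0 CPM in Ctnnb1-siRNA dDAVP. The Ctnnb1-siRNA groups lay below both control-siRNA groups without overlap, and replicate 2 of the control-siRNA dDAVP group sat within the range of the vehicle libraries. With vehicle the siRNA lowered Id1 by 0.65 on the log2 scale, from 18.2 ± 1.52 to 11.6 ± 0.42 CPM (log2 change -0.65, SE 0.10, 95% interval -0.86 to -0.43, edgeR adjusted p = 0.008088). With dDAVP the log2 change was -0.35 (SE 0.10, -0.57 to -0.14, edgeR adjusted p = 0.1756). The average was -0.50 (SE 0.071, 1.41-fold lower, edgeR adjusted p = 0.001512) and kept its call in all 21 alternatives.

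The dDAVP change of Id1 was -0.29 with control siRNA (SE 0.099, -0.50 to -0.08, edgeR adjusted p = 0.1554) and -0.0012 with Ctnnb1 siRNA (SE 0.10, -0.22 to 0.21, edgeR adjusted p = 0.9971). Those values look unlike, but the interaction of 0.29 (95% interval -0.01 to 0.59, unadjusted p = 0.05691, edgeR adjusted p = 0.9176) did not pass. Leaving out replicate 2 of the control-siRNA dDAVP group took the dDAVP change to -0.41 and past the threshold (adjusted p = 0.03074), as did voom (-0.37, adjusted p = 0.01039) and log2 TPM plus 0.1 (-0.36, adjusted p = 0.04982). On that TPM scale the median change over genes in that comparison was -0.0565, against -0.0042 in edgeR. The siRNA call with vehicle was lost without replicate 3 of the control-siRNA vehicle group (adjusted p = 0.07411) or replicate 3 of the Ctnnb1-siRNA vehicle group (adjusted p = 0.06658). Id1 and Id3 thus both fell with Ctnnb1 siRNA on average, while under dDAVP Id3 rose and Id1 was not called.

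Id2 (chr12:25093799-25096092) was the most abundant member. It was at 80.1, 79.4 and 77.2 CPM in control-siRNA vehicle and at 73.8, 83.4 and 77.7 CPM in control-siRNA dDAVP, which overlapped. It was at 82.7, 90.2 and 95.7 CPM in Ctnnb1-siRNA vehicle and at 92.2, 102 and 95.8 CPM in Ctnnb1-siRNA dDAVP, above the control-siRNA libraries of the same treatment in every case. The siRNA changed it by 0.18 with vehicle (SE 0.062, 95% interval 0.05 to 0.32, edgeR adjusted p = 0.358) and by 0.30 with dDAVP (SE 0.062, 0.17 to 0.44, edgeR adjusted p = 0.05398). Their average, 0.24 (SE 0.044, 0.15 to 0.34), passed (edgeR adjusted p = 0.008068) and ran opposite to Id1 and Id3. On log2 TPM that call was lost, at 0.16 (adjusted p 0.06209 with a pseudocount of 1 and 0.0627 with 0.1), whereas the change with dDAVP passed in 5 of 22 alternatives: with DESeq2 (0.30, adjusted p = 0.001758), voom (adjusted p = 0.02062) and the 1 CPM filter (adjusted p = 0.04438), without replicate 2 of the control-siRNA dDAVP group (0.35, adjusted p = 0.03413) and without replicate 3 of the Ctnnb1-siRNA dDAVP group (0.31, adjusted p = 0.03857). The averaged dDAVP change of Id2 was 0.05 (-0.04 to 0.14, edgeR adjusted p = 0.6161).

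Id4 (chr13:48261116-48266028) was close to undetected. It had 15 reads in all, found in 5 of the 12 libraries: 4 in replicate 1 of control-siRNA vehicle, 5 and 2 in replicates 1 and 3 of control-siRNA dDAVP, and 2 each in replicates 2 and 3 of Ctnnb1-siRNA vehicle. The 3 Ctnnb1-siRNA dDAVP libraries had 0. A count of 0 allows up to 3 reads, or 0.0632 to 0.0895 CPM at the depths of the 7 libraries without a read, so no difference between groups could be detected. Such limits and counting errors cover sampling of reads only.

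Per length, the order of the Id genes was Id2, Id1, Id3 and Id4 in all 4 groups. In control-siRNA vehicle Id2 was at 128 TPM, Id1 at 36.7 TPM and Id3 at 6.74 TPM, with Id4 at 0.0133 TPM. Together they made 171 ± 3.96, 162 ± 5.03, 164 ± 6.7 and 172 ± 7.31 TPM (control-siRNA vehicle, control-siRNA dDAVP, Ctnnb1-siRNA vehicle, Ctnnb1-siRNA dDAVP; SD, n = 3), so on deposited TPM the group means of the sum lay between 162 and 172 TPM while the shares of its members shifted. Deposited TPM ran lower outside control-siRNA vehicle: on log2 TPM plus 1 the median pairwise change over genes was -0.068 to -0.046. In edgeR it was -0.0049 to 0.0011. On TMM-scaled CPM Id2, the bulk of the sum, averaged 78.9, 78.3, 89.5 and 96.6 CPM in the same group order, so the steady sum describes deposited TPM only. In the same order Id2 held 74.6%, 75.3%, 83.7% and 82.7% of the sum, Id1 21.4%, 17.7%, 13.8% and 12.7%, and Id3 3.95%, 6.98%, 2.44% and 4.59%. The ratio of Id1 to Id3 was 5.51 ± 1.07 and 5.68 ± 0.23 in the vehicle groups and 2.54 ± 0.16 and 2.83 ± 0.50 in the dDAVP groups (control then Ctnnb1 siRNA), with the lowest vehicle library at 4.80 and the highest dDAVP library at 3.36. These shares and ratios restate the levels above and were not tested.

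**Figure D3:**
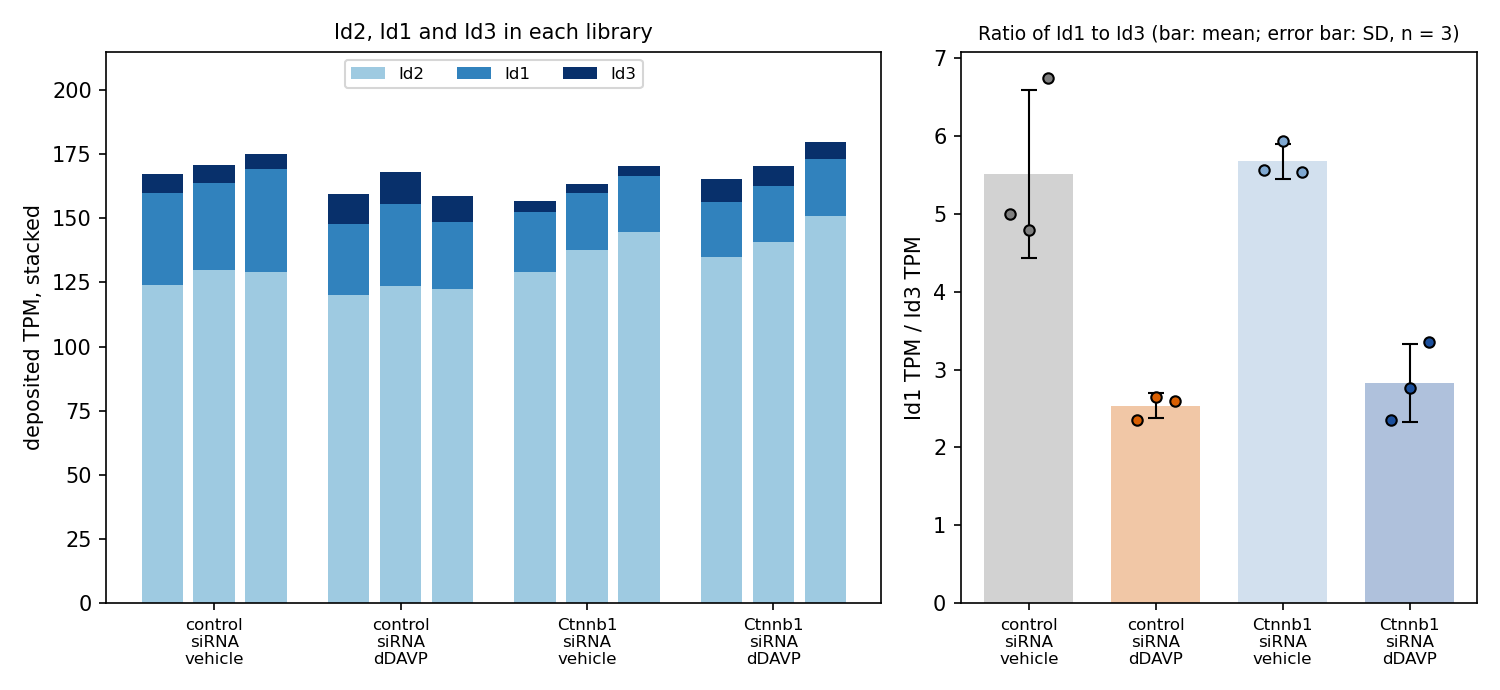
Left, deposited TPM of Id2, Id1 and Id3 stacked for each of the 12 libraries, and right, the ratio of Id1 to Id3 TPM in each library (points) with group means and SD (n = 3). On deposited TPM, which ran lower outside control-siRNA vehicle, the stacks are of similar height, from 157 to 180 TPM. The ratio is between 4.80 and 6.75 with vehicle and between 2.35 and 3.36 with dDAVP.

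Smad6 (chr9:63953076-64022085) and Smad7 (chr18:75367365-75395935) encode the feedback inhibitors. Smad6 was at 16.8, 19.0 and 19.7 CPM in control-siRNA vehicle and at 14.0, 16.8 and 15.7 CPM in control-siRNA dDAVP, where the highest dDAVP library lay just below the lowest vehicle library. With Ctnnb1 siRNA it was at 15.8, 16.9 and 16.5 CPM in vehicle and at 16.6, 16.0 and 13.4 CPM in dDAVP, which overlapped. Smad7 was at 19.8, 22.2 and 22.0 CPM and at 19.0, 20.8 and 17.3 CPM with control siRNA (vehicle, then dDAVP) and at 21.8, 19.6 and 19.1 CPM and at 20.1, 16.1 and 18.01 CPM with Ctnnb1 siRNA, and the groups overlapped in all 4 comparisons. Their averaged dDAVP changes were -0.18 for Smad6 (SE 0.068, 95% interval -0.32 to -0.03, edgeR adjusted p = 0.1503) and -0.16 for Smad7 (SE 0.067, -0.30 to -0.02, edgeR adjusted p = 0.1976). Neither passed over all genes. Both had unadjusted edgeR p-values under 0.05 (0.01895 and 0.03018), as did 19.1% of all tested genes in that averaged effect. With voom, Smad6 passed under dDAVP with control siRNA (-0.26, adjusted p = 0.04837). The averaged siRNA changes were -0.10 for Smad6 (-0.24 to 0.05) and -0.08 for Smad7 (-0.22 to 0.07). Smad7 overlaps the lncRNA gene Gm41776, not analysed here.

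Ordered by TPM, Id2 and Id1 led the 7 genes in all 4 groups and Tgfb2 and Id4 closed them. The middle order moved with dDAVP. In control-siRNA vehicle it ran Smad6 (12.9 TPM), Smad7 (10.2 TPM), Id3 (6.74 TPM), Tgfb2 (2.83 TPM), and no neighbours overlapped. With dDAVP and control siRNA Id3 (11.3 TPM) stood level with Smad6 (10.4 TPM), their libraries overlapping, and above Smad7 (8.73 TPM). In Ctnnb1-siRNA vehicle Id3 was back below Smad7 (3.97 against 9.18 TPM), and in Ctnnb1-siRNA dDAVP it lay between Smad6 (9.69 TPM) and Smad7 (7.83 TPM) at 7.85 TPM, overlapping both.

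The rest of the pathway was read from a list of 106 genes by role, of which 85 had a row and 73 were tested. This list too was chosen with earlier results of these data known, so its counts are a description only. Leaving out the members, 67 were tested. The averaged dDAVP effect called 4 of these 67 higher and 4 lower, beside 4.33% and 2.54% of all tested genes. The averaged siRNA effect called 0 higher and 6 lower in edgeR, beside 0.939% and 0.909%, and 20 of the 67 had an unadjusted p under 0.05 in either direction, beside 13.2% of all. In either direction under the siRNA, DESeq2 and voom called 12 of the 67 each, beside 586 and 924 of all 16508 genes. Limma on log2 TPM plus 1 and plus 0.1 called 7 each, beside 269 and 249. Over all 73 the median log2 change was -0.02 under dDAVP (33 above 0) and -0.07 under the siRNA (20 above 0), beside medians of -0.005 and -0.001 over all tested genes.

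Among the 11 tested ligands, Bmp7 was the most abundant BMP at 46.4, 48.4, 39.7 and 40.7 TPM (groups in the order control-siRNA vehicle and dDAVP, Ctnnb1-siRNA vehicle and dDAVP), and its averaged siRNA change of -0.16 missed the threshold (edgeR adjusted p = 0.05989). Tgfb3, a further TGF-beta ligand, was at 11.9, 13.7 and 12.2 CPM in control-siRNA vehicle and at 9.09, 8.05 and 7.53 CPM in Ctnnb1-siRNA vehicle, without overlap (log2 change -0.61, SE 0.11, edgeR adjusted p = 0.02304), a call lost on leaving out any one of these 6 libraries (adjusted p up to 0.143). Averaged over treatments Tgfb3 fell by 0.54 on the log2 scale with the siRNA (edgeR adjusted p = 0.001824), so that of the 3 TGF-beta ligands Tgfb2 and Tgfb3 were lower and Tgfb1 was at -0.13 to 0.18 in the pairwise siRNA comparisons, not called. Gdf11, an activin-like ligand, was lower with dDAVP (average -0.35, SE 0.064, edgeR adjusted p = 0.002583). Bmp3, a BMP known as an antagonist of the others, was higher (average 0.80, SE 0.16, edgeR adjusted p = 0.004557, kept in all 21 alternatives). It was at 2.96, 1.73 and 2.21 CPM in control-siRNA vehicle against 4.05, 4.17 and 4.97 CPM in control-siRNA dDAVP (edgeR adjusted p = 0.0415, lost in 10 of 22 alternatives). With Ctnnb1 siRNA it was at 3.94, 3.40 and 4.17 CPM in vehicle against 4.53, 5.46 and 8.40 CPM in dDAVP. That change, 0.68, was not called (edgeR adjusted p = 0.1311), and its highest library was the replicate that stood apart.

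None of the 12 tested receptors or of the 5 tested signalling SMADs was called by edgeR in any of the 7 comparisons. Among the receptors 2 had an unadjusted p under 0.05 in the averaged dDAVP effect, beside 19.1% of all tested genes, and limma on log2 TPM plus 1 called 1. In the averaged siRNA effect 3 had an unadjusted p under 0.05, beside 13.2% of all, and voom called 2. For the SMADs 0 had an unadjusted p under 0.05 and DESeq2, voom and both log2 TPM fits called 0. The BMP receptor gene Bmpr1a was at 97.8, 92.8, 90.3 and 85.7 TPM, and the BMP SMAD genes Smad1 and Smad5 at 19.6, 18.03, 18.4 and 16.6 TPM and at 52.5, 49.9, 48.6 and 45.6 TPM, in the order of groups used above. These are deposited TPM, which ran lower outside control-siRNA vehicle. On TMM-scaled CPM Bmpr1a was at 265.1, 261.3, 258.5 and 255.2 CPM (averaged siRNA change -0.04, 95% interval -0.10 to 0.03). The averaged dDAVP changes of Smad1 and Smad5 lay within a narrow band, -0.08 (95% interval -0.18 to 0.02) for Smad1 and -0.04 (-0.12 to 0.05) for Smad5.

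Among inhibitors, Nedd4l, a ubiquitin ligase that acts on SMAD2, SMAD3 and epithelial sodium channels, was higher with dDAVP (average 0.35, SE 0.060, edgeR adjusted p = 0.001636). It was the only one of the 12 tested intracellular inhibitors called in the averaged dDAVP effect, and the others include Smad6, Smad7 and Skil. Nbl1, a secreted BMP antagonist of the DAN family, was at 23.7, 23.4 and 21.5 CPM in control-siRNA vehicle, at 17.3, 17.2 and 18.4 CPM in control-siRNA dDAVP, and at 15.8, 15.1 and 15.6 CPM in Ctnnb1-siRNA vehicle. It fell in both comparisons with the control-siRNA vehicle group (log2 changes -0.37 and -0.56, edgeR adjusted p = 0.007617 and 0.001798), calls kept in all 22 alternatives. Both calls share those vehicle libraries. The Ctnnb1-siRNA dDAVP group averaged 14.7 CPM. After Ctnnb1 siRNA the dDAVP change was -0.07 (edgeR adjusted p = 0.7387), with overlap. With dDAVP the siRNA change was -0.26 (edgeR adjusted p = 0.1613), without overlap. Neither was called, nor was the interaction (0.30, 95% interval 0.08 to 0.51, edgeR adjusted p = 0.9176). Crim1, a membrane protein that binds BMPs, fell slightly with the siRNA (average -0.16, edgeR adjusted p = 0.02887), a call lost in 7 of 21 alternatives.

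Of the 9 genes that activate or store latent TGF-beta, the integrin subunit genes Itgb6 and Itgb8 fell with dDAVP. Itgb6 was at 213, 216 and 216 CPM in control-siRNA vehicle and at 151, 162 and 152 CPM in control-siRNA dDAVP, and at 209, 214 and 212 CPM against 158, 161 and 157 CPM with Ctnnb1 siRNA. The groups were far apart under either siRNA (log2 changes -0.47 and -0.41, edgeR adjusted p = 9.009e-06 and 3.939e-05), and every alternative kept both calls. Itgb8 fell by 0.55 on the log2 scale on average (edgeR adjusted p = 0.001763). Ltbp1, which tethers latent TGF-beta to the matrix, was higher with dDAVP (average 0.26, edgeR adjusted p = 0.01563, lost on both log2 TPM scales) and lower with the siRNA (average -0.30, edgeR adjusted p = 0.01782, lost in 7 of 21 alternatives).

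**Figure D4:**
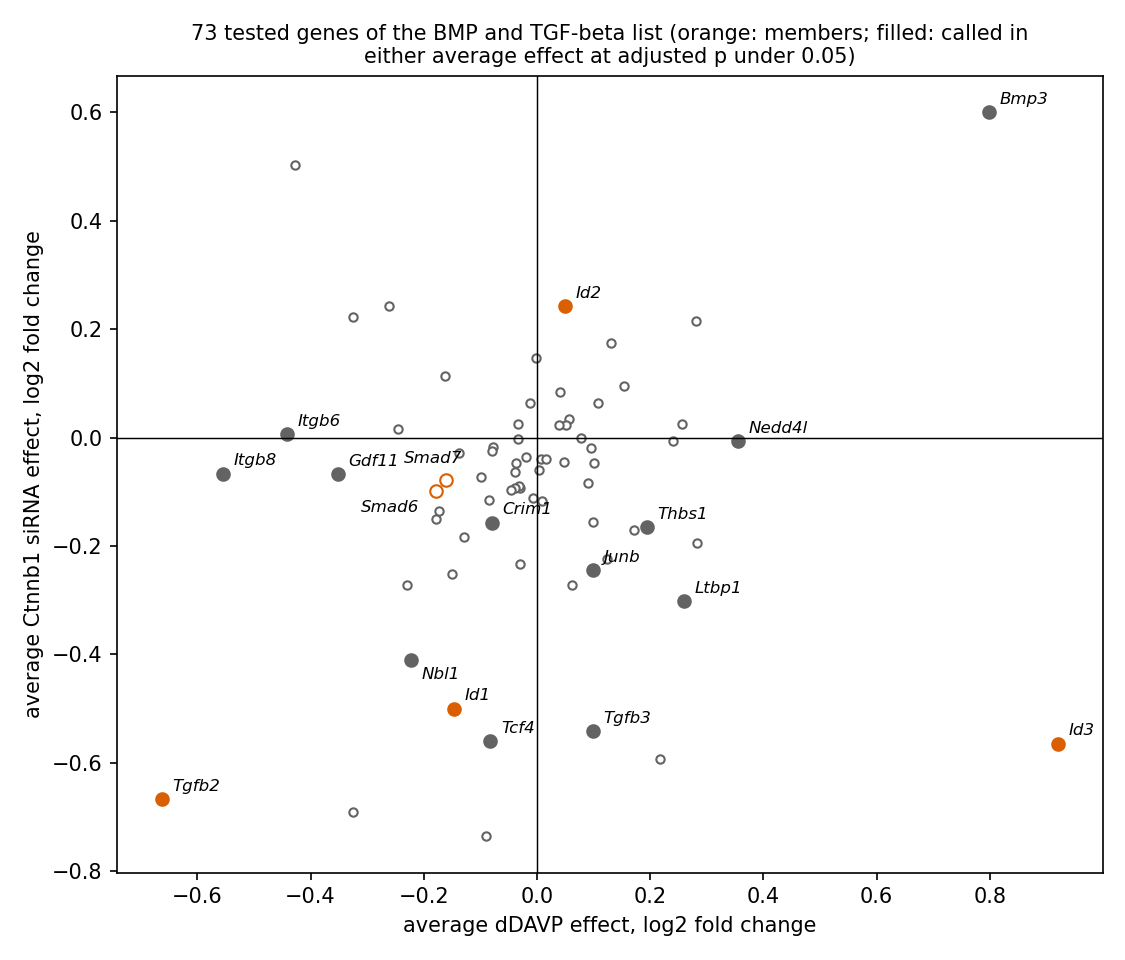
Averaged dDAVP effect (x axis) against averaged Ctnnb1-siRNA effect (y axis), both log2 fold changes, for the 73 tested genes of the BMP and TGF-beta list, with members in orange and filled points for an adjusted p under 0.05 in either. Id3 lies at 0.92 and -0.56, and Tgfb2 at -0.66 and -0.67.

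Of the 8 tested TGF-beta target genes, Junb was called (averaged siRNA change -0.25, edgeR adjusted p = 0.0162), a call lost without replicate 2 of the control-siRNA vehicle group or replicate 2 of the Ctnnb1-siRNA vehicle group (adjusted p up to 0.0611). In the averaged siRNA effect 4 of the 8 had an unadjusted edgeR p under 0.05, beside 13.2% of all tested genes. DESeq2 called 2, voom 1 and each log2 TPM fit 2. The median log2 change of the 8 was -0.168 (3 above 0), beside -0.001 over all tested genes. In the averaged dDAVP effect 2 of the 8 had an unadjusted edgeR p under 0.05, beside 19.1% of all. The 4 tested BMP targets outside the members, Hey1, Atoh8, Msx2 and Runx2, were called in none of the 7 comparisons by edgeR, where 0 of them had an unadjusted p under 0.05, nor by DESeq2, voom or limma on either log2 TPM scale. Msx2, a homeobox gene, was at 2.99, 3.54, 3.35 and 3.26 TPM in the 4 groups (averaged dDAVP change 0.15, 95% interval -0.12 to 0.43). The other 3 had group means of at most 0.267 TPM and wide intervals.

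Of the 3 genes for the E proteins that Id proteins bind, 1 was called. Tcf4, the E protein gene and not the TCF7L2 gene of the Wnt pathway, was at 63.3, 69.8 and 70.9 CPM in control-siRNA vehicle and at 69.1, 61.4 and 72.5 CPM in control-siRNA dDAVP. It was at 52.3, 49.2 and 44.2 CPM in Ctnnb1-siRNA vehicle and at 42.2, 37.6 and 50.8 CPM in Ctnnb1-siRNA dDAVP, below every control-siRNA library. The averaged siRNA change was -0.56 (SE 0.070, edgeR adjusted p = 0.0006885), kept in all 21 alternatives, while in the comparison with dDAVP (-0.64, edgeR adjusted p = 0.01252) the call was lost in 6 of 22. Tcf3, Tcf4 and Tcf12 together made 143 ± 10.6, 142 ± 12.4, 131 ± 7.25 and 121 ± 4.76 TPM, and the ratio of summed Id to summed E protein TPM was 1.20 ± 0.06, 1.15 ± 0.14, 1.25 ± 0.11 and 1.42 ± 0.05 (SD, n = 3). This RNA ratio is a description, was not tested, and says nothing of the proteins. The E protein sums are on deposited TPM, which ran lower outside control-siRNA vehicle. In edgeR the averaged siRNA changes of Tcf3 (-0.04) and Tcf12 (-0.09) were not called.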

How the data were processed

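RNA from 12 libraries (4 groups of 3) was analysed. Per the submitters' processing notes, FastQC, Trimmomatic, HISAT2, StringTie and DESeq2 were used with GRCm38 (mm10), and roles and versions are not given there. The deposited table holds unnormalised read counts per gene and, per the file headers, TPM values made by the authors for the same 12 libraries. Library kits were stranded, per the labels' protocols.

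The main model of the counts used edgeR 4.0.16 (R 4.3.3): filterByExpr on the group (16508 genes kept, with 99.968% of reads), TMM scaling, a robust quasi-likelihood fit with 1 coefficient per group over all 12 libraries, and p-values adjusted by Benjamini-Hochberg across the 16508 genes. All adjusted p-values are from edgeR unless another tool is named. The common biological coefficient of variation was 8.26%. The fit was tested on simulated data. Alternatives used DESeq2 1.42.0, limma 3.58.1 (voom with sample weights, and log2 of deposited TPM plus 1 or 0.1), other scalings, filters and sample sets, a replicate block, and each library left out in turn. "Without" a library, adjusted p-values are edgeR's from the refit. With 3 libraries against 3 an exact permutation test cannot go below p = 0.1, so none was run.

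The members, the pathway list and the marker lists were chosen with earlier results of these data known. Besides the members and Ctnnb1, up to 3 called genes per role and comparison were named by smallest adjusted p, and Bmp7, Tgfb1, Bmpr1a, Smad1, Smad5, Hey1, Atoh8, Msx2, Runx2, Skil, Tcf3, Tcf12 and Thbs1 were added after their values were seen. Genes like each member are the 2 with the highest Pearson correlation of log2 CPM (prior count 2) among genes whose CPM averaged 1 or more. Genes with symbols of Gm and digits, or with Rik in the symbol, were left out of that search. Coordinates and promoter windows are RefSeq's for GRCm38.p6. Identical symbols matched all 7 members. Promoter sequences of Id1 and Smad7 were not used here.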

Additional observations from a re-analysis of the deposited data

How the results depend on the processing

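No alternative turned a called member change around: of 906 recomputed member values 828 kept direction and side of the threshold, 26 lost a call, 24 gained one, and 28 uncalled values changed sign. Under dDAVP with control siRNA (467 genes and 1 member called) DESeq2 called 744 genes and voom 1301, and members were 2 with DESeq2, the 1 CPM filter, a fit of only the 2 groups, the replicate block and log2 TPM plus 1, 4 with voom and 3 with log2 TPM plus 0.1. Under dDAVP with Ctnnb1 siRNA (459 and 2) genes were 737 with DESeq2, 275 with only the 2 groups, 210 and 219 on log2 TPM plus 1 and plus 0.1, with 1 member on both TPM scales. Under Ctnnb1 siRNA with vehicle (71 and 1) genes were 169 with DESeq2, 255 with only the 2 groups and 253 with voom, and members 2 with only the 2 groups, voom and both TPM scales. Under Ctnnb1 siRNA with dDAVP (44 and 1) genes were 259 with DESeq2, 8 with only the 2 groups, 301 with voom, and 21 and 22 on log2 TPM plus 1 and plus 0.1, and members 2 with DESeq2, the 1 CPM filter and voom and 0 with only the 2 groups and both TPM scales. The interaction called 1 gene with DESeq2 and 2 on log2 TPM plus 0.1. The averaged dDAVP effect (1133 genes) called 1843 with voom, and the averaged siRNA effect (305) 586 with DESeq2 and 924 with voom. The cause of these differences was not tested. The share of calls that were higher was lower on log2 TPM plus 1 than in edgeR: 42.39%, 63.33%, 25.42% and 19.05% against 67.67%, 74.95%, 47.89% and 45.45% in the pairwise comparisons in the order above, and 33.36% and 16.73% against 63.02% and 50.82% in the averages for dDAVP and the siRNA. The median log2 change over genes was lower there too: -0.046, -0.049, -0.068 and -0.065 pairwise and -0.048 and -0.066 in the averages. In edgeR these medians lay between -0.0049 and 0.0011.

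Leaving out 1 library in turn, dDAVP with control siRNA called 240 (without control-siRNA vehicle replicate 3) to 843 genes (without Ctnnb1-siRNA dDAVP replicate 3) and 0 to 2 members, and dDAVP with Ctnnb1 siRNA called 212 (without Ctnnb1-siRNA vehicle replicate 2) to 492 genes and 1 to 2 members. Ctnnb1 siRNA called 18 (without Ctnnb1-siRNA vehicle replicate 3) to 181 genes and 0 to 3 members with vehicle, and 5 (without control-siRNA dDAVP replicate 1) to 216 genes and 0 to 2 members with dDAVP, the highest counts each without Ctnnb1-siRNA dDAVP replicate 3. The averages called 807 to 1279 genes and 2 members for dDAVP, and 172 to 606 genes and 3 to 4 members for the siRNA.

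A replicate block by the replicate numbers called 408, 415, 53 and 38 genes in the 4 pairwise comparisons in the order above, 0 in the interaction, and 1064 and 263 in the averages. The numbers did not pair the libraries: over 18 same-number pairs the correlation of deviations from group means ran from -0.086 to 0.072, none over 0.1, and 3 of 12 libraries correlated best with their own number. Precision was lowest for Id3 and Tgfb2, the tested members with the fewest reads, at biological coefficients of variation of 13.2% and 11.3% against 5.83% to 8.46% for the others, and depth leaves Id4 untested.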

Other observations

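The genes whose levels ran most like each member over the 12 libraries were picked from 11708 genes by the Pearson correlation of log2 CPM, which is given as a description because the libraries share 4 groups. For Id3 they were Rnf186 (r = 0.954) and Cotl1 (r = 0.949), and for Id1 Cd24a and Rnase4 (both r = 0.92). For Id2 they were Trip10 (r = 0.939) and D17H6S56E-5 (r = 0.933). For Tgfb2 they were Col4a2, a basement membrane collagen gene, and Nrep (both r = 0.95), for Smad6 Dbn1 (r = 0.955) and Zfp747 (r = 0.948), and for Smad7 Plscr3 (r = 0.892) and Rara (r = 0.881), a retinoic acid receptor gene.

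Among the members themselves Smad6 and Tgfb2 ran together both over the 12 libraries (r = 0.739) and after the group means were taken out (r = 0.729). That within-group value was the highest of any pair of tested members, and the next was 0.533 (Id3 and Tgfb2). Replicate 3 of the Ctnnb1-siRNA dDAVP group, which stood apart, was the lowest of its group in both genes (13.4 and 2.34 CPM). Id1 and Id2 ran opposite over the 12 libraries (r = -0.661) and not within groups (r = 0.348), and Id1 and Tgfb2 ran together over the 12 libraries (r = 0.729) and not within groups (r = 0.049). Thbs1, whose product can activate latent TGF-beta, was the fourth gene of its role called in the averaged dDAVP effect (0.19, SE 0.048, edgeR adjusted p = 0.02221).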
